A study of Mus musculus with 8 samples.

Results

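The chromatin around Cd34 was examined peak by peak in 4 sorted populations of mouse common myeloid progenitors. Members were all ATAC-seq peaks within the Cd34 gene body or 50 kb to either side of it, a window of 122 kb at chr1:194888821-195011292 (mm10). ATAC-seq marks open DNA by the insertions of a transposase. Merging the F-Seq peaks of the 8 libraries gave 29 regions in the window, of 207739 regions in the genome. Of these, 21 held a peak in at least 2 libraries and entered the tests, 8 held a peak in 1 library only, and 7 held a peak in all 8 libraries. The gene was chosen by its covered length, which differed in these data between C10 and C18 and between C2 and these populations. Those differences are therefore given as a description, without a test.

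The cells were primary bone marrow cells of the C57BL/6 strain, wild-type in genotype, and all were sorted as KIT+ and CD16/32-; each population gave 2 libraries. C2 was the CD34bright population and was CD41+ CD9+. C13, C18 and C10 were CD34dim. C13 was CD41- CD9-, while C18 and C10 were both CD41+ CD9+ and differed in CD48, which was dim in C18 and bright in C10. Whether paired libraries stem from separate animals is not labelled, so p-values measure only the spread between libraries, which may be technical. Each population is taken from its sample labels, by its sorted antigens. The design text of the series lists other cluster names, of which only C10 recurs among the sample titles. The lists hold peaks and no reads, and sequencing depth is unknown.

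Cd34 encodes a transmembrane sialomucin of blood progenitors, vascular endothelium and mast cells, related to podocalyxin and endoglycan. Its sugar chains can present ligands to selectins, and its level on the cell surface is used to sort stem and progenitor cells. Accessible promoters and distal elements mark regulatory DNA, but openness does not by itself give a level of transcription.

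Cd34 lies on the plus strand of chromosome 1 and spans 22472 bases (194938821 to 194961292 in the RefSeq table for GRCm38.p6). Gm39748, Gm16897 and Gm32250, long non-coding RNA genes of the minus strand, reach into the window. Relative to the Cd34 start, Gm39748 starts at -37584 bases. Gm16897 starts at +38138 bases and overlaps the end of Cd34, and Gm32250 starts at +59094 bases. Positions are given as distances from the Cd34 start, negative upstream. Whether a peak inside Cd34 is exonic or intronic was not analysed here.

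The 250 bases before the start of Cd34, Gm39748 and Gm16897 are shown because a peak lay over each of them, and because the F-Seq peak at Gm39748 ranked highest in both C2 libraries. Capitals mark matches on either strand to short motifs: AGATAA of GATA factors, CGGAAG or else AGGAAG of ETS factors, TGTGGT of RUNX factors, AACGG of MYB, the E-box CACGTG, and TGACTCA of AP-1. The sequences are from RefSeq (GRCm38.p6) and read 5′ to 3′ in the direction of each gene. They lie at chr1:194938571-194938820 (plus strand), chr1:194901238-194901487 (minus strand) and chr1:194976960-194977209 (minus strand).
Cd34: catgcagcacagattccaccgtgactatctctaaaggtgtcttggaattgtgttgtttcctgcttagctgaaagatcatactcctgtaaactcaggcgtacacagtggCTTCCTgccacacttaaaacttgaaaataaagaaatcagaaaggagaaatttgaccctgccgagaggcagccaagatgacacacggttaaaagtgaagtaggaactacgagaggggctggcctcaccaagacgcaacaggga
Gm39748: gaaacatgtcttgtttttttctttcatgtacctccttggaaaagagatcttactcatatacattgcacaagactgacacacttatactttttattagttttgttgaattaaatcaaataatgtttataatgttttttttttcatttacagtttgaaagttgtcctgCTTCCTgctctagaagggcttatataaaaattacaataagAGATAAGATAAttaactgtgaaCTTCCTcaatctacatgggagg
Gm16897: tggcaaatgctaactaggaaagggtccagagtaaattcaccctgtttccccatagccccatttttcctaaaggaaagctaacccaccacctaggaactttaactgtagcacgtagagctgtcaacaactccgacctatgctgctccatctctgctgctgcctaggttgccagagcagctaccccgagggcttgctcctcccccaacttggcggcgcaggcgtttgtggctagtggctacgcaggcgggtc
The Cd34 stretch held 1 match, AGGAAG on the opposite strand, with its first base 142 bases before the start; 29.5% of 32851 promoters of this length hold that motif. Gm39748 held 2 overlapping AGATAA matches, a motif present in 9.99% of promoters, and 2 AGGAAG matches on the opposite strand. Gm16897 held none. GC content was 46.4% at Cd34, 29.6% at Gm39748 and 54.8% at Gm16897, against a median of 52.4% over all promoters. A match is a string of letters and no evidence of binding.

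F-Seq, the caller used for the regions, listed 100000 peaks in each library in falling order of signal. A rank of 1 is thus the strongest peak of a library. The C18 libraries stood apart in both sets of lists before any gene was considered. Their F-Seq peaks were the narrowest, with a median width of 491 and 618 bases against 691 to 800 in the other 6 libraries. HOMER, the second caller, listed 72379 and 83548 peaks in C18 and 171712 to 260118 elsewhere. What sets the C18 lists apart was not tested, and read depth and biology cannot be told apart in these files.

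**Figure D1:**
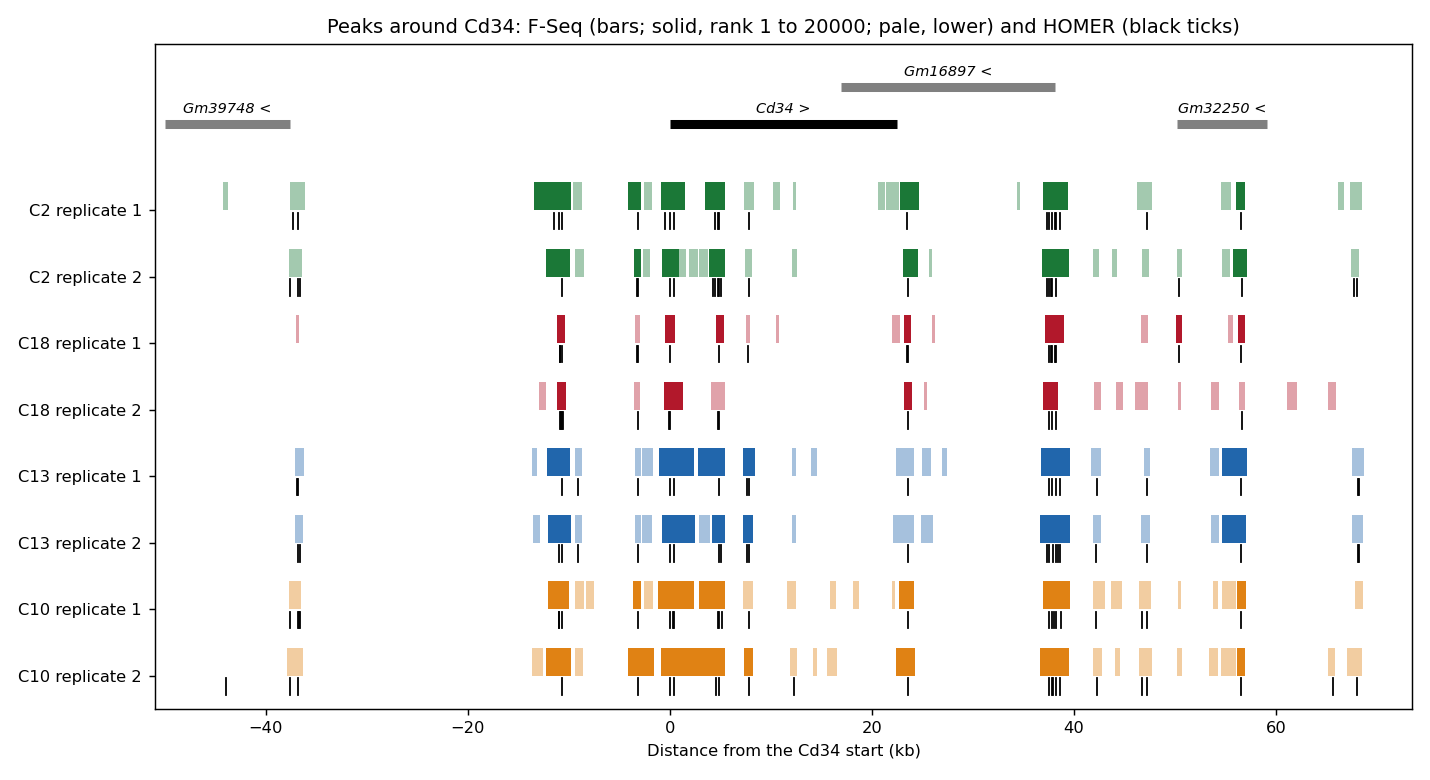
Peaks of the 8 libraries by distance from the Cd34 start in kb. Bars are F-Seq peaks, solid where the rank is 20000 or better and pale where it is lower, black ticks are HOMER peaks, and the grey and black bars on top are genes with their direction. Solid bars recur near -10.7 kb, the Cd34 start, +4.9 kb, +23.0 kb, +38.1 kb and +56.6 kb.

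The strongest peaks of the locus were shared by all populations. The 5 regions with the best mean rank lay at +38.1 kb, +2.2 kb, -11.7 kb, +55.8 kb and +23.0 kb (the middle of each merged region), and each held a peak in all 8 libraries. The first covers the start of Gm16897, the second the Cd34 start and the first kilobases of the gene, and the last runs over the end of Cd34. F-Seq peaks covered the whole of the Cd34 and Gm16897 promoter stretches in 8 of 8 libraries, so in these lists the CD34dim populations also had an open Cd34 promoter.

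The region over the Cd34 start runs from 194937625 to 194944327. It joins a promoter peak and a peak at +4.9 kb, because 1 peak of C10 replicate 2 is 6318 bases wide and spans both. The promoter peak, with its summit 29 to 48 bases after the start, ranked 2431 and 2186 in C2, 13989 and 11989 in C18, 1202 and 3087 in C13, and 1446 in C10 replicate 1. Both C18 libraries thus placed it several times further down their lists than all others, while CD34bright C2 lay within the range of C13 and C10. The promoter peak was 2355 and 1708 bases wide in C2, 1025 and 1883 in C18, 3550 and 3273 in C13, and 3588 in C10 replicate 1.

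The peak at +4.9 kb, inside Cd34, ranked 2452 and 1771 in C2, 17816 and 20735 in C18, 2754 and 2571 in C13, and 974 and 1504 in C10. C10 was highest and C18 lowest, with no overlap between C18 and the rest. On the merged region, C13 ranked higher than C18 by 2.88 on the log2 rank scale (SE 0.426, limma with Benjamini-Hochberg adjustment over 124246 regions, adjusted p = 0.00313). With regions drawn around summits instead, the difference at +4.9 kb was 2.85 (SE 0.295, limma adjusted p = 0.00123). The promoter summit alone gave 2.75 (SE 1.81, limma adjusted p = 0.305); C10 replicate 2 entered that fit as without a peak, because its wide peak has its summit at +4.9 kb. In the HOMER lists the peak at the start gave 2.98 (SE 0.561, limma adjusted p = 0.00807). The C18 libraries were among those for which the gene was chosen, so these p-values are no independent evidence.

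Upstream, the region at -11.7 kb has its summit at -10.7 kb. Its ranks were 1883 and 2080 in C2, 6965 and 16999 in C18, 1813 and 3408 in C13, and 2864 and 2824 in C10. C18 was again the lowest, C2 lay next to C13, and C13 ranked higher than C18 (2.13, SE 0.483, limma adjusted p = 0.0154). At +55.8 kb, within Gm32250, ranks were 12496 and 12394 in C2, 14259 and 50633 in C18, 2966 and 6370 in C13, and 7865 and 8277 in C10. Here the CD41- CD9- population C13 was highest and C2 stood below both C13 and C10.

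C18 did not stand apart at +38.1 kb or +23.0 kb. At +38.1 kb, over the start of Gm16897, ranks were 3804 and 3322 in C2, 4048 and 4721 in C18, 3966 and 4254 in C13, and 2294 and 3419 in C10. The populations lay close together in the order C10, C2, C13, C18. C10 overlapped C2 and C13 overlapped C18, and C2 minus C13 was 0.21 (SE 0.255, limma adjusted p = 0.626). At +23.0 kb, over the end of Cd34, ranks were 16856 and 12767 in C2, 9181 and 18124 in C18, 20150 and 22097 in C13, and 9450 and 9383 in C10. C13 was the lowest there, and C18 replicate 1 the highest of all 8 libraries.

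**Figure D2:**
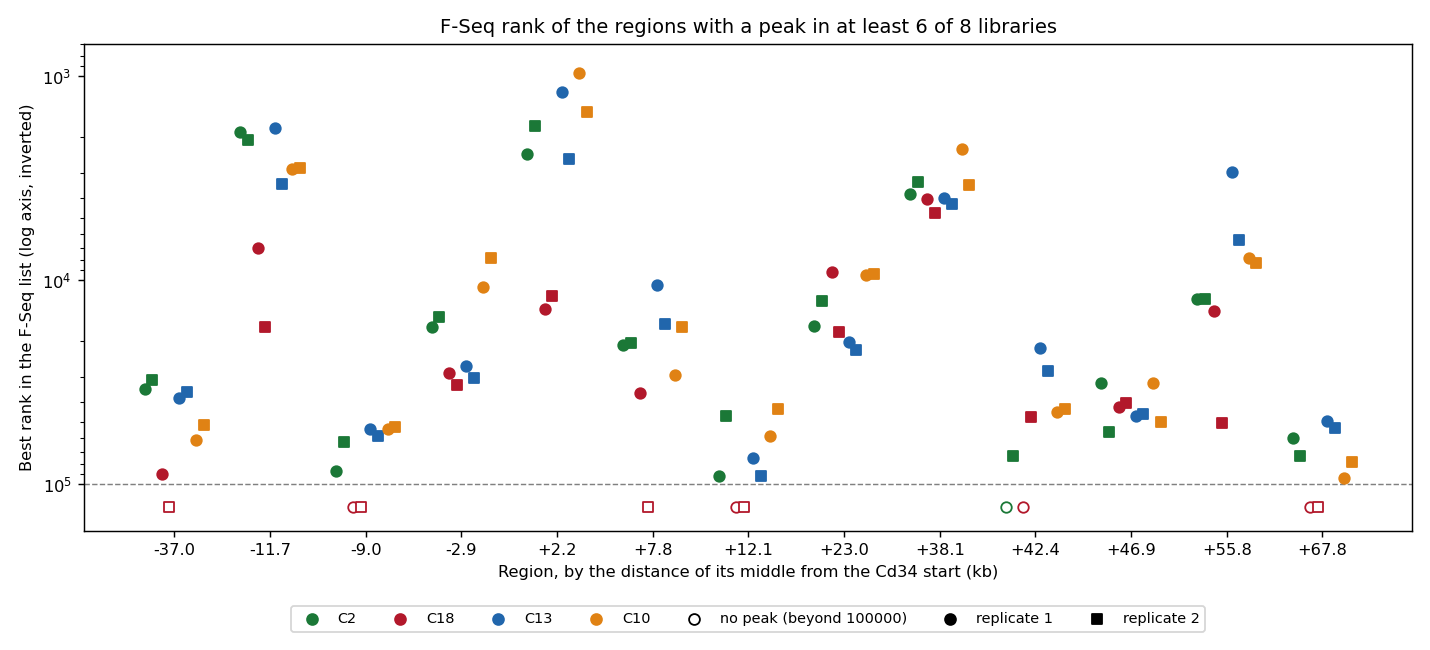
Best F-Seq rank (inverted log axis; rank 1 is the strongest peak) of the 13 regions with a peak in at least 6 of 8 libraries, placed in order along the locus. Circles and squares are replicates 1 and 2, and open symbols mark libraries without a peak in the list of 100000; C18 lies lowest at +2.2 kb and -11.7 kb, and C2 highest at -37.0 kb only.

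Which peaks follow CD34bright C2 was asked by counting regions ranked higher in both C2 libraries than in the 6 others. There was 1 of 21, against 5.55% of all 124246 regions. It lies at -37.0 kb (194900976 to 194902674), over the start of the long non-coding RNA gene Gm39748. Its ranks were 34370 and 31089 in C2, 38149 and 35497 in C13, 61253 and 51674 in C10, and 89408 in C18 replicate 1, with no peak in C18 replicate 2. The margin over C13 was small: C2 minus C13 was 0.17 on the log2 rank scale (SE 0.214, limma adjusted p = 0.635). The HOMER ranks did not repeat this order. In lists reduced to the 72379 strongest peaks, the peak at -36.8 kb ranked 55852 and 51186 in C13 and 55161 in C2 replicate 2. It was missing from the other 5 reduced lists. In the full lists the best HOMER peak of the region ranked 72638 in C2 replicate 1, just past that cut, and 104853 and 86079 in C10. Only the C18 lists held no HOMER peak there. No region held a peak in both C2 libraries and in none of the other 6.

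The peak at -37.0 kb also differed in extent. It was 1480 and 1298 bases wide in C2, 1269 and 1504 in C10, 877 and 863 in C13, and 318 in C18 replicate 1. The Gm39748 promoter stretch printed above was covered in full by F-Seq peaks in both C2 and both C10 libraries, and by 0 of its 250 bases in the C13 and C18 libraries. HOMER peaks covered 75 and 115 of these bases in C2, 104 and 94 in C10, and 0 in C13 and C18. Both callers thus placed this stretch under peaks in C2 and C10 alone, while the summit stayed near -36.8 kb in all 7 libraries with a peak. The overlap was looked at after the ranks were seen.

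Drawing regions 250 bases to each side of the summits raised the count to 3 of 26, against 5.82% of all regions. The additional peaks were weak. That at -2.2 kb ranked 38182 and 38644 in C2, 73815 and 67343 in C13, and 51167 in C10 replicate 1; it had no summit of its own in C10 replicate 2 and no peak in C18. That at +55.1 kb ranked 49436 and 58422 in C2, 66592 and 77323 in C10 and 80983 in C18 replicate 1. It had no summit of its own in C13. C2 minus C13 was 0.90 at +55.1 kb (SE 0.178, limma adjusted p = 0.0143) and 0.88 at -2.2 kb (SE 0.329, limma adjusted p = 0.109). At +55.1 kb both C13 libraries entered the fit as without a peak. Both regions were picked as highest in C2, so these p-values are no support. In the HOMER lists, each reduced to its 72379 strongest peaks, 1 of 18 regions was highest in C2, against 4.51% of all. It lay at +4.5 kb, inside the wide F-Seq peak at +4.9 kb. HOMER ranks were 36478 and 43395 in C2 and 51968 in C10 replicate 2, with no peak elsewhere. C2 minus C13 was 0.86 there (SE 0.181, limma adjusted p = 0.0152), again with both C13 libraries as without a peak. In these lists 1 of 18 regions was higher in C2 than in C13 and 2 were lower, against 6003 and 17707 of all 80762.

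The other populations were counted in the same way. C18 was lowest at 8 of 21 regions, against 11.9% of all regions, which is the pattern the gene was chosen for. These lay at -37.0, -11.7, -9.0, +2.2, +7.8, +12.1, +55.8 and +67.8 kb, and at -9.0, +12.1 and +67.8 kb all 6 other libraries held a peak and neither C18 library did. C18 was highest at 1 region (9.71% of all regions), +25.5 kb. C13 was highest at 4 (25.1% of all) and lowest at 1 (8.74%). C10 was highest at 3 (9.56%), among them +16.0 kb, where only the C10 libraries held a peak. That region entered the count through C10 alone. C2 was lowest at 0 regions (1.19% of all), as was C10 (1.56%).

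C2 was tested against C13, a contrast that was not among those by which the gene was chosen. It compares CD34bright CD41+ CD9+ with CD34dim CD41- CD9- cells. The C2 libraries were themselves used in the choice. The p-values of this contrast, here and region by region, are therefore no independent evidence. F-Seq peaks covered 26.2 and 22.5 kb of the window in C2 and 26.4 and 25.5 kb in C13. Coverage was 28.0 and 31.1 kb in C10 and 10.3 and 14.3 kb in C18, which was lowest. Scaled to the total covered length of each list, this was 24.2 ± 2.98 kb in C2 and 23.3 ± 1.07 kb in C13 (SD, n = 2 each). The difference was 0.05 on the log2(bases + 200) scale (SE 0.117, limma adjusted p = 0.808), where 6.86% of 19710 loci were higher and 3.56% lower. The sign turned in 6 of 22 other settings. In the HOMER lists C2 minus C13 was 0.49 (SE 0.184, limma adjusted p = 0.133), with scaled coverage of 3632 and 3344 bases in C2 and 2175 and 2686 in C13, which did not overlap. That difference passed the threshold without C18 replicate 1 (0.50, limma adjusted p = 0.0478) or without C18 replicate 2 (0.50, limma adjusted p = 0.0446). C2 and C13 thus overlapped over the whole window in the F-Seq lists and not in the scaled full HOMER lists. There the call rested on which C18 libraries entered the fit. Before scaling HOMER coverage overlapped, with 3221 and 3412 bases in C2 and 2943 and 3572 in C13. With HOMER lists reduced to the 72379 or the 50000 strongest peaks, C2 minus C13 was 0.17 and 0.16.

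Region by region, 1 of 21 ranked higher in C2 than in C13 (9.12% of all regions) and 1 lower (19.1%). The higher one lay at -2.9 kb (194934661 to 194937260), with ranks of 17172 and 15255 in C2, 28851 and 32764 in C18, 26585 and 30373 in C13, and 10847 and 7873 in C10. C2 exceeded C13 by 0.81 (SE 0.233, limma adjusted p = 0.0454), but the peak was strongest in C10, which is CD34dim. This call was lost with regions drawn around summits (limma adjusted p = 0.0517 at -3.2 kb). The lower one lay at +42.4 kb (194980519 to 194981930), with ranks of 21721 and 28188 in C13, 44338 and 43168 in C10, 47303 in C18 replicate 2 and 73066 in C2 replicate 2. The remaining 2 libraries had no peak there, and C2 minus C13 was -1.79 (SE 0.398, limma adjusted p = 0.0193). The count of 2 rested on single libraries: it was 0 without C2 replicate 1 or without either C13 library, 1 without C2 replicate 2 and 4 without C18 replicate 2. Without both C18 libraries, 1 region was higher and 2 lower.

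C13 and C10 are both CD34dim. C13 is CD41- CD9-, and C10 is CD41+ CD9+ and CD48bright. The C10 libraries were used in the choice of the gene, so the p-values of C13 minus C10 are no independent evidence. Scaled covered length was 27.2 ± 0.945 kb in C10 (SD, n = 2), and C13 minus C10 was -0.22 (SE 0.117, limma adjusted p = 0.372), where 0.254% of loci were higher and 0.726% lower. Of the 21 regions, 1 ranked higher in C13 (16.4% of all regions) and 2 lower (8.25%). At -2.9 kb C13 lay below C10 by a log2 rank difference of -1.62 (SE 0.233, limma adjusted p = 0.00466). At +16.0 kb only C10 held peaks, at ranks 76959 and 79289 (-0.36, SE 0.0496, limma adjusted p = 0.00418). The 6 libraries without a peak share 1 value there, so the spread rests on C10. That region also passed the filter of at least 2 libraries through C10 alone, so its call is no support for a difference. At +67.8 kb C13 was higher, with ranks of 49449 and 53492 against 93453 and 78775 in C10, 60078 and 73188 in C2, and no peak in C18 (0.74, SE 0.174, limma adjusted p = 0.0264). The count of 3 was 1 without C13 replicate 1 or C10 replicate 1, and 0 without C13 replicate 2. Without the C18 libraries it was 4, and neither C2 minus C13 nor C13 minus C10 passed over the whole window (limma adjusted p = 0.745 and 0.231).

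C13 covered more of the window than C18 in the F-Seq lists. Scaled covered length was 15.5 ± 1.02 kb in C18 (SD, n = 2), and C13 minus C18 was 0.59 (SE 0.117, limma adjusted p = 0.00894). The gene was chosen by covered length in C18 among others, so this p-value is no independent evidence. At this threshold 12.4% of loci were higher in C13 and 21% lower, and the median of all loci was -0.12. Without C13 replicate 1 the call was lost (0.54, limma adjusted p = 0.0831). Of the 21 regions, 8 ranked higher in C13 (25.4% of all regions) and 1 lower (12.3%). Besides +2.2 kb and -11.7 kb, the higher regions lay at +55.8 kb (2.63), +7.8 kb (2.17), +42.4 kb (1.47), -37.0 kb (1.36), +67.8 kb (0.96) and -9.0 kb (0.83). At +7.8 kb, inside Cd34, ranks were 10649 and 16551 in C13, 20964 and 20365 in C2, 29388 and 17038 in C10, and 35829 in C18 replicate 1, with no peak in C18 replicate 2. The exception was +25.5 kb, just beyond the end of Cd34, with ranks of 62254 and 77539 in C18, 99882 and 88939 in C13, 88852 in C2 replicate 2 and no peak in C10 (-0.44, SE 0.130, limma adjusted p = 0.0401). This lower call was lost without either library of C2, C13 or C10, and in the settings with a replicate block, with no filter and by scaled covered bases. The count of 9 was 2 without C13 replicate 1 and 4 without C13 replicate 2.

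The remaining regions were weak or matched none of these patterns. The region at +46.9 kb held a peak in all 8 libraries at ranks of 32165 to 55917. At +50.4 kb C18 replicate 1 had a peak at rank 13965, far above the 42389 to 96065 of the 4 other libraries with a peak, C18 replicate 2 being the last of them. The regions at +10.6, +12.1, +14.3, +44.3, +53.9 and +65.5 kb held peaks at ranks of 38465 or lower in 2 to 6 libraries. The 8 regions found in 1 library lay at ranks of 62665 to 99675. At the borders of the window, the nearest region outside lay at -52.6 kb (7 libraries, best rank 15314) and the first inside at -44.0 kb (1 library, rank 97510). On the other side the last inside lay at +67.8 kb (6 libraries, best rank 49449) and the next outside at +75.6 kb (1 library, rank 69949).

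**Figure D3:**
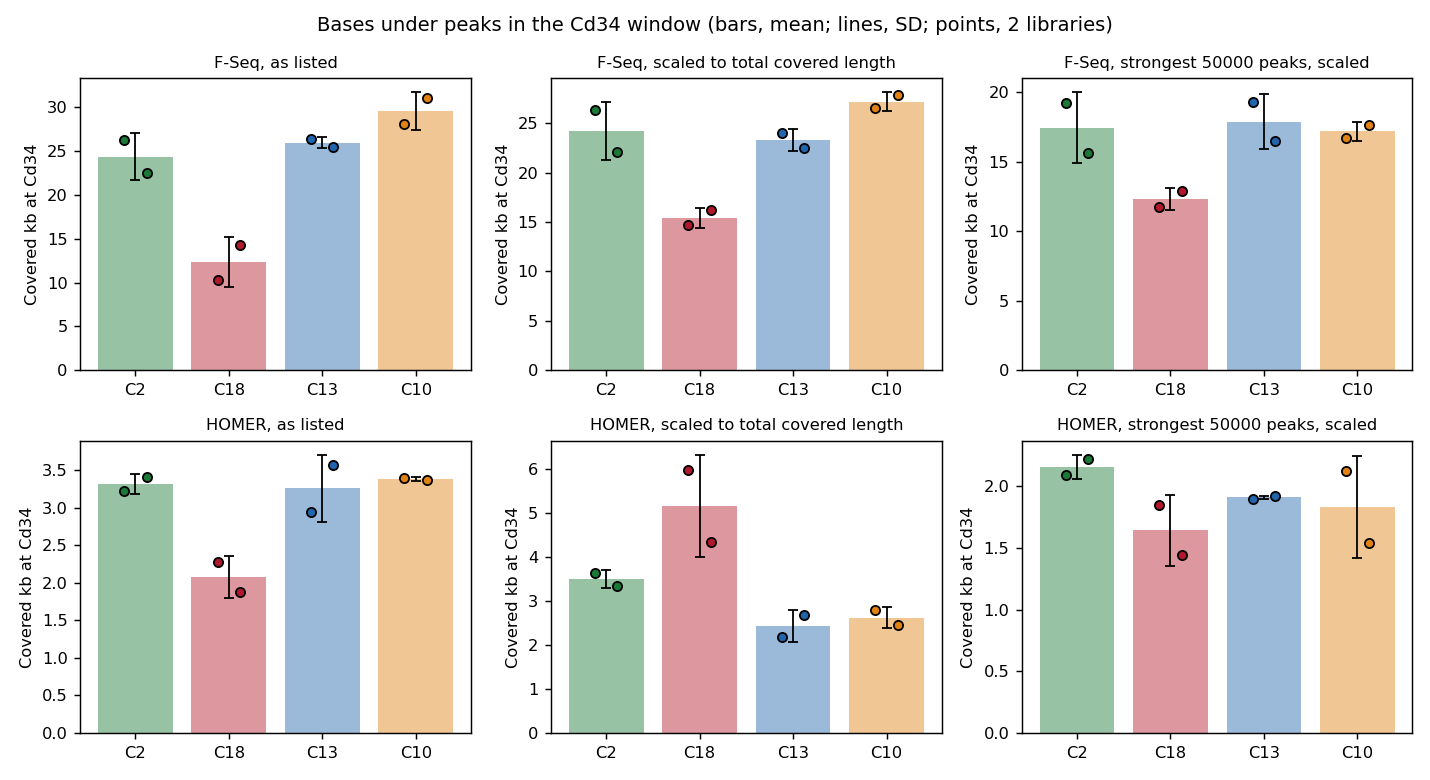
Covered kb of the Cd34 window in the 4 populations (bars, mean; lines, SD; points, the 2 libraries), for F-Seq in the upper and HOMER in the lower row. As listed, C18 is lowest with both callers; after scaling to the total covered length of each list the HOMER value of C18 becomes the highest (5.15 kb), and with the 50000 strongest peaks of each list it is again the lowest.

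The callers gave opposite signs for C18 at this locus. In the F-Seq lists C10 minus C18 was 0.81 on the log2(bases + 200) scale, against a median of -0.14 over all loci. In the HOMER lists it was -0.91, against a median of -0.24. Scaled HOMER coverage was 5.15 ± 1.16 kb in C18 and 2.62 ± 0.232 kb in C10 (SD, n = 2 each). It was 3.49 ± 0.204 kb in C2 and 2.43 ± 0.362 kb in C13. C13 minus C18, which was 0.59 in the F-Seq lists, was -1.01 in the scaled full HOMER lists (SE 0.184). These values describe the disagreement for which the gene was chosen and are no independent evidence of it.

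Before scaling, the callers put C18 in the same place. HOMER peaks covered 3.22 and 3.41 kb of the window in C2, 2.28 and 1.88 kb in C18, 2.94 and 3.57 kb in C13, and 3.40 and 3.37 kb in C10. C18 was the lowest with no overlap, as with F-Seq. The totals by which these values were divided differed far more for HOMER: the scaling factors were 2.62 and 2.31 for the C18 HOMER lists and 0.729 to 1.13 for the others, against 1.43 and 1.13 for the C18 F-Seq lists and 0.885 to 1.00 for the others. Per 100000 listed HOMER peaks, the window held 23.5 and 16.8 in C18, 7.91 and 9.63 in C13, 10.6 and 8.84 in C10, and 12.8 and 12.2 in C2.

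The HOMER values were also set against the median of all loci. Without scaling, C10 minus C18 in the HOMER lists was 0.66, but the median of all loci was then 1.18, so that Cd34 lay at -0.52 relative to it. With scaling it lay at -0.67. When each HOMER list was reduced to the 72379 strongest peaks, the length of the shortest list, the difference was 0.21 and lay at 0.34 relative to the median of all loci. With the 50000 strongest it was 0.13, or 0.28 relative to the median. The F-Seq difference lay at 0.95 relative to the median with scaling and at 0.96 without. With HOMER lists of equal length the value relative to all loci had the sign of the F-Seq value, and with the full lists the opposite sign. The cause was not tested. At equal length the difference was smaller than the spread of the libraries: HOMER covered 2.04 ± 0.381 kb in C18 against 2.39 ± 0.365 kb in C10 (SD, n = 2 each).

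Peak by peak, C18 was also lowest by HOMER rank at the Cd34 start, at +4.8 kb and at -10.8 kb, but not at the other main peaks. At the Cd34 start HOMER ranks were 4634 and 3098 in C2, 21353 and 23690 in C18, 1720 and 4738 in C13, and 2206 and 3911 in C10. At +4.8 kb they were 3426 and 1912 in C2, 27370 and 33613 in C18, 2881 and 2275 in C13, and 866 and 1610 in C10. C18 was the lowest at both, without overlap. In the reduced HOMER lists C18 was lowest at 6 of 18 regions, against 8.6% of all, and highest at 0 of 18, against 10.9%. C13 was highest at 4 (26.6% of all) and lowest at 0 (6.68%), C10 was highest at 2 (10.8%) and lowest at 0 (1.4%), and C2 was lowest at 0 (1.64%). C13 ranked higher than C18 at 8 of 18 (26.1% of all HOMER regions) and lower at 0 (11.8%) by the same limma test. At +4.8 kb the difference was 3.57 (SE 0.442, limma adjusted p = 0.00174). The gene was chosen by the C18 libraries among others, so these counts and this p-value are no independent evidence. At the start of Gm16897, +37.5 kb, HOMER ranks were 5626 and 3804 in C2, 4641 and 6705 in C18, 4113 and 4800 in C13, and 2520 and 4637 in C10, and again overlapped. At +23.5 kb they were 27775 and 16021 in C2, 10919 and 22642 in C18, 22168 and 26872 in C13, and 12429 and 10011 in C10. At +56.6 kb they were 24767 and 21685 in C2, 21619 and 77919 in C18, 2962 and 8334 in C13, and 10861 and 10298 in C10. The peak of C18 replicate 2 there lay beyond the 72379 strongest and was absent from its reduced list. C18 replicate 1 stood above both C2 libraries at these 2 peaks.

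What the callers counted at the shared peaks differed. In the 7 regions with an F-Seq peak in all 8 libraries, F-Seq peaks covered 18840 and 16454 bases in C2, 8469 and 9643 in C18, 18342 and 18633 in C13, and 18023 and 20690 in C10. HOMER listed 19 and 17 peaks in these regions in C2, 15 and 14 in C18, 12 and 16 in C13, and 19 and 15 in C10. C18 was therefore low by F-Seq width and within the range of the others by the number of HOMER peaks of 150 bases. Outside the 7 regions HOMER listed 2 and 0 peaks in C18, 8 and 8 in C13, 6 and 8 in C10, and 3 and 7 in C2. Of the HOMER peaks in the window, 15 of 17 and 14 of 14 in C18 thus lay in the shared regions. These were 19 of 22 and 17 of 24 in C2, 12 of 20 and 16 of 24 in C13, and 19 of 25 and 15 of 23 in C10. The shared regions were defined by a peak in every list, C18 included, which bears on the C18 share. That share over the whole genome is not given here.

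Over the whole lists, the callers parted at weak peaks. Of the strongest 20% of F-Seq peaks, 97.8% to 99.9% were also under a HOMER peak, in all 8 libraries. In the weakest 20% this share was 0.880% and 1.65% in C18, 81.0% and 78.0% in C13, 68.3% and 80.7% in C10, and 24.7% and 43.2% in C2. In the Cd34 window, 9 of 15 and 7 of 16 F-Seq peaks of C18 had a HOMER peak, against 10 of 21 and 11 of 22 in C2, 13 of 20 and 13 of 19 in C13, and 11 of 23 and 13 of 21 in C10. In the window C18 was thus not set apart by this share. Over the whole lists it was, with 42.45% and 41.96% in C18 against 71.11% and 80.79% in C2. In C13 the whole-list share was 94.42% and 93.62%, and in C10 89.96% and 94.12%. In the window the C18 shares, 60% and 43.75%, lay above those of their whole lists. The window shares of the other libraries, 47.6% to 68.4%, each lay below that of the whole list. The part of this contrast in the disagreement of the callers was not tested. All HOMER peaks in the window overlapped an F-Seq peak of their library except 1 in C10 replicate 2, at -43907 bases. The smallest whole-number score in a HOMER list, a column the files do not name, was 10 and 9 in C18 and 14 to 16 elsewhere; the part of this limit in the result was not tested.

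**Figure D4:**
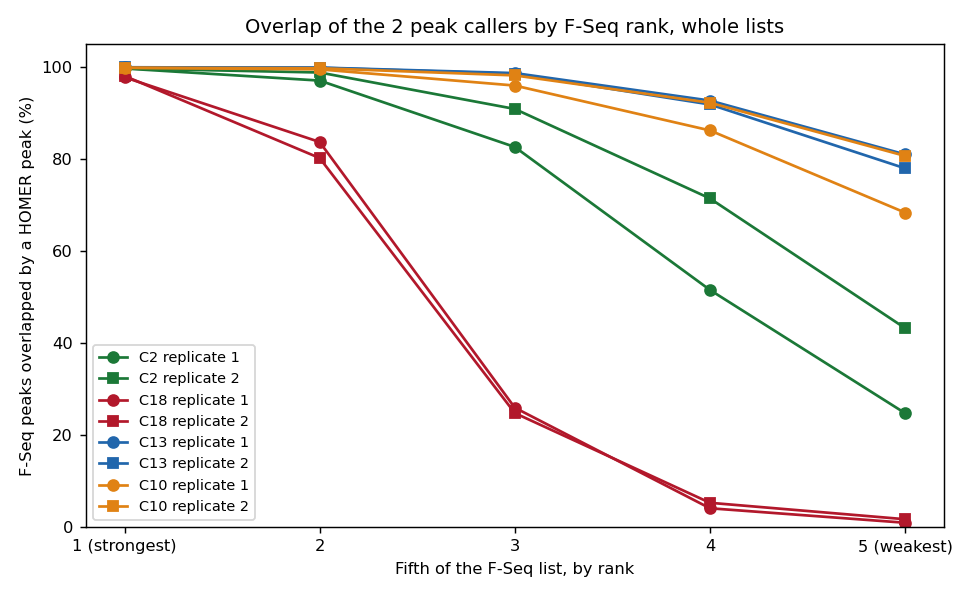
Share of F-Seq peaks with at least 1 base under a HOMER peak, library by library (percent), in steps of 20% of the F-Seq list in order of rank. The lines of the 8 libraries start together between 97.8% and 99.9%, and those of C18 fall to 0.880% and 1.65% in the weakest 20%, below all others.

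Across the genome, the loci whose covered length was most like that of Cd34 over the 8 libraries were Klkb1 (Pearson r = 0.987), Irak1bp1 (0.986), Dbf4 (0.983), Zfp429 (0.983) and Olfr713 (0.982), among 18431 loci. The points share their libraries and lists, and each of these loci was lowest in the C18 libraries. In the scaled F-Seq lists the relatives of Cd34 moved the other way between C13 and C18. Podxl, which encodes podocalyxin, was lower in C13 than in C18 (-0.75, SE 0.186, limma adjusted p = 0.0191), as was Podxl2, which encodes endoglycan (-0.40, SE 0.112, limma adjusted p = 0.0286). Without scaling these were -0.27 and 0.10, so that Podxl2 turned. In the HOMER lists Podxl turned (0.79), while Podxl2 (-1.04) had the sign of Cd34 (-1.01). None of the 3 family members passed in C2 minus C13 or C13 minus C10.

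The selectin genes Selp and Sele, whose proteins bind sialomucin ligands, were both higher in C13 than in C18 (0.56 and 0.96; limma adjusted p = 0.0175 and 0.00534), though Selp was -0.29 in the HOMER lists. They are neighbours whose windows share peaks. Of 6 other sialomucin and selectin ligand loci, 1 was higher in C13 than in C18 (Cd164, endolyn, 0.66) and 2 lower (Spn, leukosialin, -0.81, and Emcn, endomucin, -1.18), with a median of -0.29 against -0.12 over all loci; in the HOMER lists Cd164 (-0.21) and Emcn (0.20) turned. Over all loci 12.4% were higher and 21% lower, so with 6 loci these counts single out nothing. In C2 minus C13, 1 of the 6 was higher (Emcn, 1.14, SE 0.239, limma adjusted p = 0.0294) and 0 lower. Crkl, an adaptor that binds the CD34 tail, passed in no contrast.

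Among 10 other surface genes of progenitors (Kit, Flt3, Ly6a, Thy1, Slamf1, Procr, Cd27, Esam, Cd93 and Prom1), none passed in C2 minus C13, C13 minus C10 or C13 minus C18. Over all loci 6.86% were higher and 3.56% lower in C2 minus C13. These shares were 0.254% and 0.726% in C13 minus C10, and 12.4% and 21% in C13 minus C18. Of 12 transcription factor loci of progenitors, 5 were higher in C2 than in C13, where 6.86% of all loci were, and 0 lower (3.56% of all loci). The median was 0.39 against 0.09 over all loci, and 7 of the 12 did not pass. Those that passed were Gata2 (1.27), Runx1 (0.94), Myb (0.90), Lyl1 (0.57) and Tal1 (0.56), and in the HOMER lists their differences were 0.02, 0.18, 0.02, 0.35 and 0.49. Gata2 was also lower in C13 than in C10 (-0.84, SE 0.138, limma adjusted p = 0.0411), the only one of the 12 that passed there. In C13 minus C18, 1 was higher (Mecom, 0.68) and 5 lower (Gata2, Runx1, Tal1, Lyl1 and Spi1), of which Spi1 turned without scaling (-0.35 to 0.14). Over all loci 12.4% were higher and 21% lower in that contrast.

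CD34 also marks endothelium and mast cells, so markers of both were measured in the F-Seq lists within 10 kb of each gene. All 8 endothelial markers had peaks in both libraries of every population, with summed lengths of 39.3 to 40.1 kb in C2, 39.3 to 48.4 kb in C18, 37.4 to 40.4 kb in C13 and 39.7 to 42.6 kb in C10. The 8 haematopoietic markers summed to 81.9 to 86.2 kb in C2, 75.0 to 76.4 kb in C18, 66.8 to 71.3 kb in C13 and 67.1 to 72.0 kb in C10. The 5 mast cell markers summed to 10.1 to 10.7 kb in C2, 4.10 to 6.33 kb in C18, 2.52 to 3.74 kb in C13 and 9.94 to 10.4 kb in C10; 3 of the 5 had peaks in both libraries of C2, C13 and C10, and 4 in C18. The summed length of the 5 mast cell markers was thus larger in C2 and C10, the populations in which the Gm39748 promoter stretch was covered. This sum can rest on few of the 5 loci, and the part of these loci in that result was not tested. Stromal markers summed to 15.7 to 28.3 kb and non-haematopoietic ones to 13.6 to 35.0 kb, with C18 lowest in both, as at Cd34; their part in the C18 values at Cd34 was not tested either. Peaks in a population can come from a part of its cells, and their share and the openness per cell cannot be told apart.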

How the data were processed

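Accessible chromatin was measured by ATAC-seq in 8 libraries of 4 sorted populations. The authors deposited 16 peak lists on mm10, 1 F-Seq and 1 HOMER list per library; the submitters' processing notes name Bowtie 1.0.0 and HOMER 1.0, while for F-Seq a version was not given in the sources used here. Each F-Seq list, as deposited, gives a signal per peak, and the deposited HOMER lists of 150-base peaks give 2 unnamed score columns. The authors' signal and first score served only to rank peaks within a list. Depth is unknown.

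F-Seq peaks of the 8 lists that touch or overlap were merged into regions, and a region took the rank of its best overlapping peak, or 100001 without one. Regions and protein-coding loci (gene body extended by 50 kb, pseudocount of 200 bases, divided by each list's covered length relative to the mean list) with a peak in at least 2 libraries were fitted with limma 3.58.1 (R 4.3.3) on log2 values, with 4 group means, a trended eBayes step and adjustment by Benjamini-Hochberg at 0.05. Log2 differences of bases understate changes of loci with few covered bases. Tested contrasts were C2 minus C13, C13 minus C10 and C13 minus C18. On simulated data for C13 minus C10, 46% of loci (of 19710) and 6% of regions (of 124246) changed by a log2 of 1 were recovered, and 86% and 36% of those changed by 2.

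The gene, its window and the lists were chosen with earlier results of these data known. Values in every library are given for the region over the Cd34 start, the 5 best ranked regions, regions highest in both C2 libraries and regions past the threshold. Alternatives were other extensions, scalings, pseudocounts, filters, list lengths, callers and region definitions, a replicate block and leaving out each library. Peak sequences and exon annotation were not used here. Of the lists of other genes, 2 loci are not reported here.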

Additional observations from a re-analysis of the deposited data

How the results depend on the processing

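C2 minus C13 over the window (0.05) turned its sign with the gene extended by 10 kb (-0.013), without scaling (-0.093), scaled to the median of all loci (-0.036), with the strongest 50000 peaks (-0.038), with F-Seq peaks that have a HOMER peak (-0.0045) and without C2 replicate 1; with 1 library left out it ranged from -0.075 to 0.17. Its limma adjusted p ranged from 0.133 to 1 over these settings of the F-Seq lists and the full HOMER lists; with HOMER lists it passed when either C18 library was left out (0.0478 and 0.0446). C13 minus C10 (-0.22) turned with the strongest 50000 peaks only (0.053), with adjusted p from 0.230 to 0.953. C13 minus C18 (0.59) lost its call by the number of peaks (0.31, limma adjusted p = 0.0544) and with F-Seq peaks that have a HOMER peak (0.26, limma adjusted p = 0.240). It ranged from 0.52 to 0.65 with 1 library left out and turned in the scaled full HOMER lists (-1.01). In the HOMER lists it was 0.60 without scaling, against a median of 1.25 over all loci. With the 72379 and the 50000 strongest HOMER peaks it was 0.23 and 0.20. The causes were not tested.

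The number of regions past the threshold in C2 minus C13 (2) was 0 by scaled covered bases, 1 without the filter and 0 to 4 with 1 library left out. It ranged from 0 to 4 for C13 minus C10 (3) and from 2 to 11 for C13 minus C18 (9), which was 5 by scaled covered bases. Regions highest in both C2 libraries (1) were 3 from summits, an alternative chosen after seeing the data like those on HOMER list length, and 1 to 2 with 1 library left out.

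Deviations of same-numbered libraries correlated at -0.0059 to 0.173 over 6 pairs of populations, the highest being C13 with C10. Whether libraries of the same number share a preparation is not labelled, and these correlations cannot settle it. With the replicate number as a block, 1 region passed in C2 minus C13 in place of 2, and the window difference of C13 minus C18 kept its call (0.59, limma adjusted p = 0.0144).

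C10 minus C18, described without a test, was 1.09 in the F-Seq lists with 10 kb, 1.20 in the gene body, 1.26 without scaling, 0.97 scaled to the median, 0.48 by the number of peaks, 0.47 with the strongest 50000 peaks, and 0.74 to 0.87 with 1 library left out. In the HOMER lists it was -0.48 in the gene body, -0.56 scaled to the median, 0.66 without scaling, 0.60 by the unscaled number of peaks, 0.21 and 0.13 at equal list length, and -1.14 to -0.69 with 1 library left out.

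With 2 libraries a population, a library left out leaves a lone one that is assumed to vary like the rest. Depth is unknown, so absence from a list is not absence of open chromatin.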
